A study of Mus musculus with 8 samples.

Results

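The integrin genes described here are the 10 subunits Itga1, Itga3, Itga4, Itga5, Itga6, Itga9, Itgav, Itgb1, Itgb3 and Itgb5, taken by symbol from a table of expected counts per gene in mouse muscle stem cells. All 10 had a line among the 45706 gene lines of the table. The 3 cultured libraries held wild-type C57BL/6 cells grown for 48 h on a hydrogel of 12 kPa. The 5 fresh libraries held the same kind of cell, sequenced straight after sorting. In both groups the cells came from hindlimb muscle of female mice aged 8 to 12 weeks. They were sorted as positive for α7-integrin protein and CD34, and as negative for CD45, Sca1, CD31 and CD11b. The labels' growth protocol gives a medium with 20% serum. Cultured replicates 1 to 3 and fresh replicates 4 and 5 were sequenced together (run 2), and fresh replicates 1 to 3 apart from them (run 1). No source used here says whether replicates came from separate animals, cultures or pools. The p-values therefore cover the spread between libraries alone, and part of it may be technical.

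Integrins are cell surface receptors built from 1 α and 1 β subunit, and they join the extracellular matrix to the actin cytoskeleton. The β1 subunit pairs with many α subunits: α3, α6 and α7 with β1 bind laminins, α1 with β1 binds collagens, and α5 with β1 binds fibronectin. The αv subunit pairs with β1, β3 or β5, among others, and these receptors bind RGD sequences in vitronectin, fibronectin and osteopontin. The α4 and α9 subunits bind VCAM-1, tenascin-C, osteopontin or fibronectin. A resting muscle stem cell lies between the muscle fibre and a basal lamina rich in laminin, and α7 with β1 is its best known laminin receptor.

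Depth was similar across groups, with 16654631 to 20068154 counts per cultured library and 13919440 to 20055185 per fresh library. Stem cell identity was checked with 7 marker genes of muscle stem cells, Pax7 among them, whose levels summed to 961 to 1160.2 CPM (counts scaled to a common library size, after TMM) in cultured libraries and 4969 to 5457 CPM in fresh ones, with 6 called lower and 1 higher. The gene of the sorted α7 subunit, Itga7, averaged 83.5 ± 30.1 CPM in cultured and 71.0 ± 19.2 CPM in fresh cells (mean ± SD, n = 3 and 5, as for all means below). Of the 6 genes of the sort, 0 were called by the edgeR quasi-likelihood test, and 1 had an unadjusted p under 0.05. Mitochondrial rRNA took 11.1 to 18.4% of counts in cultured libraries, 5.25 to 10.5% in run-1 fresh and 23.2 to 26.5% in run-2 fresh libraries. Gene lines with a count were 15415 to 17852 in cultured libraries, 32710 to 34689 in run-1 fresh and 20480 to 20898 in run-2 fresh libraries. Both measures thus differed between the runs, and within run 2 the cultured and fresh libraries did not overlap in either. No pair of libraries differed by as little as sampling noise, so each counted as 1 sample. That check finds only copies of a library and cannot tell whether libraries shared animals or a pool.

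Of the 10 subunit genes, 1 rose and 6 fell in culture, and 3 did not pass the test. Itga3 rose. Itga1, Itga4, Itga6, Itga9, Itgb3 and Itgb5 fell. Itgb1, Itgav and Itga5 did not pass. A gene was called at a Benjamini-Hochberg adjusted p under 0.05 in edgeR's quasi-likelihood test over 19054 genes with sequencing run as a term, which called 26.9% of them, 8.87% higher and 18.0% lower. All 10 genes passed the filter on low counts, but Itga1, Itga4, Itga9 and Itgb3 had no cultured library above its level. These 4 entered the test through the fresh libraries alone, so their fall was a condition of their entry and the count of members that fell is only a description. The groups did not overlap for any of the 7 called genes, and 39.9% of all tested genes had groups that did not overlap, 13.7% with cultured libraries above and 26.1% with them below. In bulk RNA, fewer cells of a type and less RNA per cell cannot be told apart.

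**Figure D1:**
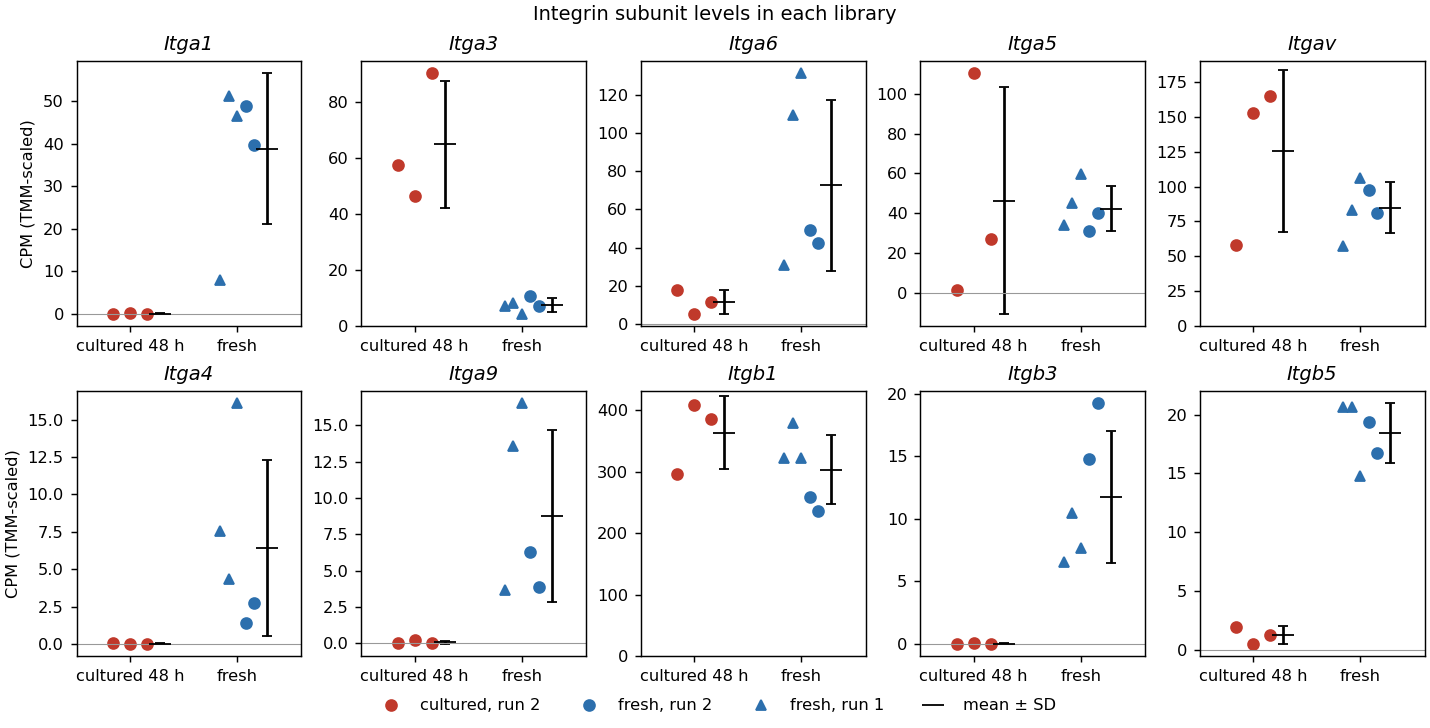
Level of each of the 10 integrin subunit genes in CPM (vertical axes, a scale of its own in each panel) in the 3 cultured and 5 fresh libraries; circles are run 2, triangles run 1, and the bars give mean ± SD. Cultured libraries lie above all fresh ones for Itga3, below all fresh ones for Itga1, Itga4, Itga6, Itga9, Itgb3 and Itgb5, while the groups overlap for Itga5, Itgav and Itgb1, with cultured replicate 2 the highest of all libraries for Itga5 and Itgb1.

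Promoter windows are shown for the called members whose RefSeq transcription start lay within 100 bases of the 5′ end of the GENCODE M21 gene, so that the 1 member that rose can be set beside members that fell. They run from 250 bases before to 50 bases after the start, 5′ to 3′ on the gene's strand, from RefSeq on GRCm38.p6 (mm10). The RefSeq table matched 8 of the 10 members, and 4 of the called ones met this condition: Itga3 at chr11:95076665-95076964 (minus strand), Itga1 at chr13:115101915-115102214 (minus strand), Itga4 at chr2:79255176-79255475 (plus strand) and Itgb5 at chr16:33829415-33829714 (plus strand). Capitals mark matches, on either strand, to a GC box (GGGCGG) or to an E-box with a GC centre (CAGCTG).
Itga3: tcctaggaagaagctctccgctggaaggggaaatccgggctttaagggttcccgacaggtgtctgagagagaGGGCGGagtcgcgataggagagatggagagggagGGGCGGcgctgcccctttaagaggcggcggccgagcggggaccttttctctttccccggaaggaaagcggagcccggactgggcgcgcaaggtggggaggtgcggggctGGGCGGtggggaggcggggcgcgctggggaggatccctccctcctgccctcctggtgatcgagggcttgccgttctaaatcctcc
Itga1: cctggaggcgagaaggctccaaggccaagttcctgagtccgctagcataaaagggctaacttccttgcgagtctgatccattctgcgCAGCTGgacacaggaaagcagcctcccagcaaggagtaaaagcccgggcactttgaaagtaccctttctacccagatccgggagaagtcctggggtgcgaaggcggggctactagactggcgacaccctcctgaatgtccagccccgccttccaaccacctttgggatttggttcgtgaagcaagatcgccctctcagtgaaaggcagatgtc
Itga4: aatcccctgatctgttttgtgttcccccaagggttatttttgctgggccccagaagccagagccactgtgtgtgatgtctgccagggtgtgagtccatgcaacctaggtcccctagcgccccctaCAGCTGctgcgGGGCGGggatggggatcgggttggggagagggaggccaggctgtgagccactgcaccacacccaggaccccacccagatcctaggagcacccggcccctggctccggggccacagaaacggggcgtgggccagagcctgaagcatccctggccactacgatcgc
Itgb5: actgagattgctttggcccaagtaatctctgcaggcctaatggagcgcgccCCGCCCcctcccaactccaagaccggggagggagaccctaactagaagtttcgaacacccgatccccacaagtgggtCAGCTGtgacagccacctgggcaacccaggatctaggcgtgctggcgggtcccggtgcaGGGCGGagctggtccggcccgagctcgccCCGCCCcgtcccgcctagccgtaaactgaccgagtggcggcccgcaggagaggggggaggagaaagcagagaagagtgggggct
The GC box letters matched 3 times in Itga3, 3 times in Itgb5, 1 time in Itga4 and 0 times in Itga1, and 35.7% of all 32851 promoter windows of this length held at least 1 match. The E-box letters matched 1 time each in Itga1, Itga4 and Itgb5 and 0 times in Itga3, and 16.3% of all windows held them. None of these matches overlapped another. The letters searched for AP-1 (TGANTCA, held by 7.81% of all windows), TEAD (GGAATG, 14.7%) and the TATA box (TATAAA, 13.6%) had no match in these 4 windows. G and C made up 66.7% of the Itga3 window, 56.7% of Itga1, 64.3% of Itga4 and 65.7% of Itgb5, against a median of 52.7% over all windows. A match describes letters only and does not mark a bound site.

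Itgb1, the β subunit shared by most matrix receptors of this family, was the most abundant member in every library. Its level was 297, 408 and 386 CPM in cultured replicates 1 to 3, against 322, 379, 323, 259 and 236 CPM in fresh replicates 1 to 5. The groups overlapped: the run-2 fresh libraries were the lowest of all, and the run-1 fresh libraries lay among the cultured ones. Its log2 fold change was 0.56 ± 0.22 (± SE) with an edgeR adjusted p of 0.0985, which did not pass the test. The fold depended on the fresh libraries: it was 0.16 against run-1 fresh libraries (edgeR adjusted p = 0.607), 0.08 with the replicate block (0.812) and 0.26 with no run term (0.396). Without cultured replicate 1 the edgeR adjusted p was 0.0354, at a log2 fold change of 0.74. Without scaling factors the edgeR adjusted p was 0.0252 at a log2 fold change of 0.99, but that setting also moved the median of all genes by 0.24, and relative to the median Itgb1 stood at 0.96 there and at 0.76 with scaling. Itgb1 (ENSMUSG00000025809) lies on chromosome 8, 128685654 to 128733200, (mm10, GENCODE M21; the same for the positions of genes below).

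Among laminin receptors, Itga3 rose and Itga6 fell. Itga3, which encodes the α3 subunit, stood at 57.8, 46.7 and 90.5 CPM in cultured replicates 1 to 3, against 7.12, 8.35, 4.32, 10.99 and 7.17 CPM in fresh replicates 1 to 5. Every cultured library was above every fresh one. The log2 fold change was 2.84 ± 0.53 (edgeR adjusted p = 0.00567), and it lay between 2.53 and 3.37 with the call kept in the 15 other settings that were tried, apart from those with fresh replicate 1 alone. Itga3 (ENSMUSG00000001507) lies on chromosome 11, 95044474 to 95076801, on the minus strand.

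Itga6, which encodes the α6 subunit, stood at 17.9, 5.15 and 11.4 CPM in cultured replicates 1 to 3, against 30.8, 109, 131, 49.0 and 42.5 CPM in fresh replicates 1 to 5. The groups did not overlap, but fresh replicates 2 and 3 were well above the other fresh libraries. The log2 fold change was -1.99 ± 0.64, and its edgeR adjusted p of 0.0490 was close to the threshold. It was called in 6 of the 15 other settings. The edgeR adjusted p was 0.0834 without cultured replicate 2, 0.0794 without cultured replicate 3, and 0.0776, 0.0678, 0.173 and 0.127 without fresh replicates 2 to 5 in turn. It was 0.0767 without scaling factors, 0.0624 with the replicate number as a block and 0.0955 with run 2 alone. Against run-1 fresh libraries alone Itga6 had a log2 fold change of -2.93 (edgeR adjusted p = 0.0103). Itga6 (ENSMUSG00000027111) lies on chromosome 2, 71745616 to 71858416.

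The ratio of Itga3 to Itga6, each per kb of exon, was 5.09, 14.4 and 12.5 in cultured replicates 1 to 3, against 0.366, 0.121, 0.0520, 0.354 and 0.267 in fresh replicates 1 to 5. Itga3 was thus above Itga6 in all 3 cultured libraries and below it in all 5 fresh libraries. Transcript forms of these subunits that differ in their cytoplasmic tails cannot be separated in a table per gene.

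Itga1, the α subunit of a collagen receptor, had 0, 6 and 0 counts in cultured replicates 1 to 3. Its level in fresh replicates 1 to 5 was 8.03, 51.2, 46.4, 48.8 and 39.6 CPM, so fresh replicate 1 was far below the other fresh libraries and still above every cultured one. The log2 fold change was -8.65 ± 1.35 (edgeR adjusted p = 0.00291), and it was -8.04 without cultured replicate 1 and -8.06 without cultured replicate 3. All cultured counts were in replicate 2. Without that library the fall from the run-2 fresh libraries was at least 570-fold, against a floor of 3 counts over the other cultured libraries. The run-1 fresh libraries, with the low fresh replicate 1, are not in this bound. The Itga1 gene (ENSMUSG00000042284) lies on chromosome 13, 114953096 to 115101964. The annotation places 685 of its 18599 exon bases also in Gm49395, a gene on the same strand.

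Itga5 and Itgav, the α subunits of fibronectin and RGD receptors, did not pass the test. Itga5 stood at 1.32, 110 and 27.2 CPM in cultured replicates 1 to 3, against 34.2, 45.1, 59.9, 31.3 and 40.4 CPM in fresh replicates 1 to 5. The fresh libraries lay close together, while the cultured ones ranged from below all of them to above all of them: cultured replicate 1 held 25 counts and cultured replicate 2 held 2143. Its log2 fold change of 0.37 ± 1.18 (edgeR adjusted p = 0.869) was -1.27 without cultured replicate 2, 1.00 without cultured replicate 1 and -1.36 with the replicate block. No direction can therefore be given for Itga5 from these libraries.

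Itgav stood at 58.5, 153 and 165 CPM in cultured replicates 1 to 3, against 57.3, 83.1, 106, 97.5 and 81.0 CPM in fresh replicates 1 to 5. Cultured replicates 2 and 3 were above all fresh libraries, and cultured replicate 1 lay at their low end. The log2 fold change was 0.49 ± 0.45 (edgeR adjusted p = 0.467), and it was positive and not called in all 15 other settings (0.28 to 0.96). Itgav shares 634 of its 10744 exon bases with Gm13684 on the opposite strand. No use of strand in counting is given in the sources used here, so their reads cannot be told apart there. Itga5 (ENSMUSG00000000555) lies on chromosome 15, 103344286 to 103366763, and Itgav (ENSMUSG00000027087) on chromosome 2, 83724397 to 83806916.

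Itgb3 and Itgb5, which encode β partners of αv, fell, whereas Itgb1 did not pass the test. Itgb3, the β subunit of the vitronectin receptor and of the platelet fibrinogen receptor, had 0, 1 and 0 counts in cultured replicates 1 to 3. In fresh replicates 1 to 5 it stood at 6.55, 10.5, 7.68, 14.8 and 19.3 CPM, with the highest levels in run 2. Its level in cultured over run-2 fresh cells was a ratio of 0.00101 (95% counting interval 2.6e-05 to 0.00567; edgeR adjusted p = 0.000996). Without cultured replicate 2, which held the 1 count, the fall from the run-2 fresh libraries was at least 219-fold.

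Itgb5, the β subunit of a second vitronectin receptor, kept counts in every cultured library. It stood at 2.00, 0.515 and 1.33 CPM in cultured replicates 1 to 3, against 20.6, 20.6, 14.8, 19.3 and 16.7 CPM in fresh replicates 1 to 5. The fresh libraries of both runs lay close together, well above the cultured ones. For Itgb5 the log2 fold change was -3.81 ± 0.69 (edgeR adjusted p = 0.00528). The call was lost with run 2 alone, where the edgeR adjusted p was 0.0516 at a log2 fold change of -3.83. Itgb3 (ENSMUSG00000020689) lies on chromosome 11, 104608000 to 104670476, and Itgb5 (ENSMUSG00000022817) on chromosome 16, 33829665 to 33949338.

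Itga4 and Itga9, the related α subunits that bind VCAM-1, tenascin-C or osteopontin, were low in fresh cells and nearly absent from the cultured counts. Itga4 had 1, 0 and 0 counts in cultured replicates 1 to 3, against 7.52, 4.34, 16.1, 1.39 and 2.74 CPM in fresh replicates 1 to 5. The run-2 fresh libraries were lower than those of run 1. The level in cultured over run-2 fresh cells was a ratio of 0.00839 (95% counting interval 0.000209 to 0.0485; edgeR adjusted p = 0.00893). Without cultured replicate 1, which held the 1 count, the fall from the run-2 fresh libraries was at least 26.7-fold. Itga4 shares 1124 of its 13978 exon bases with Cerkl on the opposite strand, which had 0 counts in the cultured libraries and 60, 13, 43, 94 and 0 counts in fresh replicates 1 to 5. The part of Cerkl reads in the Itga4 counts was not tested.

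Itga9 had 0, 4 and 0 counts in cultured replicates 1 to 3, against 3.65, 13.6, 16.6, 6.25 and 3.91 CPM in fresh replicates 1 to 5. Fresh replicate 1 and the run-2 fresh libraries were lower than fresh replicates 2 and 3. For Itga9 the log2 fold change was -6.07 ± 1.48 (edgeR adjusted p = 0.0162), and it was -5.47 without cultured replicate 1. The call was lost without fresh replicate 4 (edgeR adjusted p = 0.0637) and with run 2 alone (edgeR adjusted p = 0.0932). All cultured counts were in replicate 2, without which the fall from the run-2 fresh libraries was at least 65.6-fold. Itga4 (ENSMUSG00000027009) lies on chromosome 2, 79255426 to 79333123, and Itga9 (ENSMUSG00000039115) on chromosome 9, 118606690 to 118901003.

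The choice of fresh libraries changed the size of several falls. Against the run-1 fresh libraries alone, log2 fold changes were -8.55 for Itga4, -7.14 for Itga9 and -8.35 for Itgb3, where the fit over all libraries gave -6.40, -6.07 and -9.45. The same 7 members were called against run-1 fresh libraries, where 38.7% of genes tested were called. With run 2 alone 4 members were called, Itga3 higher and Itga1, Itga4 and Itgb3 lower, where 17.1% of genes tested were called. Between fresh libraries of run 2 and run 1, edgeR called 0 of 10 members and 0.189% of all genes tested. In edgeR 0 members had an unadjusted p under 0.05. DESeq2 called 0 of 10 members, 1 of which had an unadjusted p under 0.05, and 921 of the 19054 genes. The run coefficient was largest for Itga4, at -2.17 ± 1.16 on the log2 scale (edgeR adjusted p = 0.447), and 1.05 ± 0.82 for Itgb3 (edgeR adjusted p = 0.685).

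**Figure D2:**
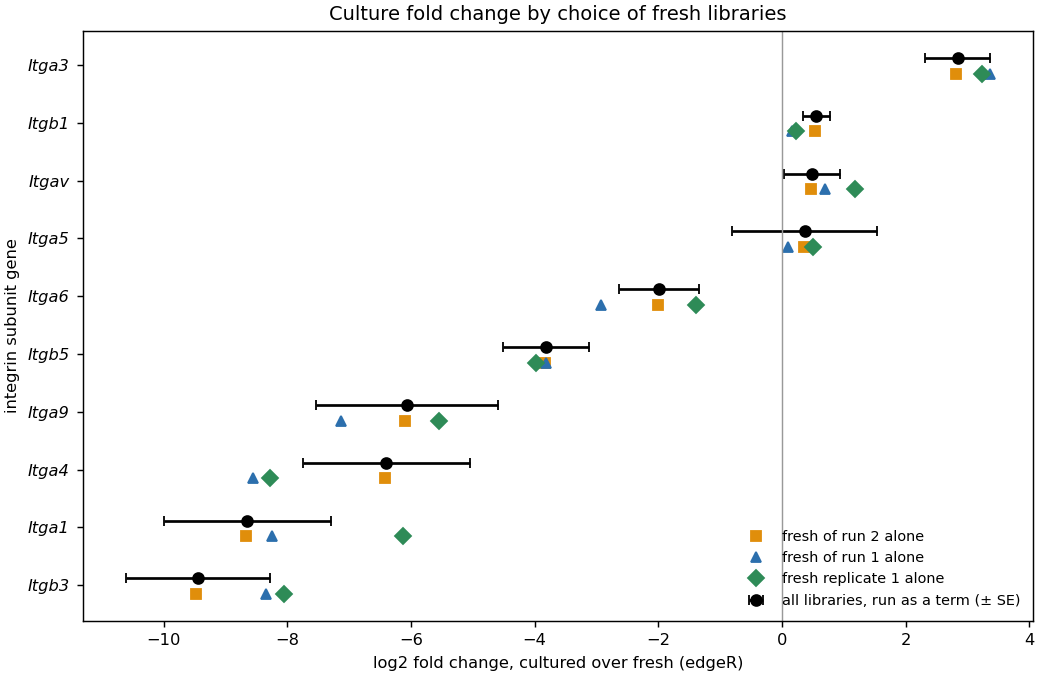
Log2 fold change of each integrin subunit gene, cultured over fresh (horizontal axis), from the fit over all libraries (black, ± SE) and from fits with the run-2 fresh libraries alone, the run-1 fresh libraries alone or fresh replicate 1 alone. The direction of each of the 10 genes is the same for every choice plotted, all with the same 3 cultured libraries. Itga5 reversed in settings not plotted, to -1.27 without cultured replicate 2 and -1.36 with the replicate block. Itga1 is nearest to 0 against fresh replicate 1 (-6.13), and Itga4 is at -6.42 against run 2 and at -8.55 against run 1.

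In some members fresh replicate 1 was well below fresh replicates 2 and 3, but only for Itga1 was it also far below the run-2 fresh libraries. Itga9 stood at 3.65 CPM in fresh replicate 1, against 6.25 and 3.91 CPM in fresh replicates 4 and 5. For Itga6 the level was 30.8 CPM in fresh replicate 1, against 49.0 and 42.5 CPM in fresh replicates 4 and 5. The log2 ratio of fresh replicate 1 to the mean of fresh replicates 2 and 3, of the same run, was -2.60 for Itga1, -2.05 for Itga9 and -1.97 for Itga6. It was between -0.72 and 0.22 for the other 7 members. Marker genes of other cell types differed in the same library: the log2 ratio was -3.61 for the sum of 8 Schwann cell markers, -1.86 for 8 pericyte and smooth muscle markers and -1.73 for 8 myeloid markers, and 0.08 for the 7 stem cell markers. It was -0.40 for 8 fibro-adipogenic and -0.27 for 8 endothelial markers.

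**Figure D3:**
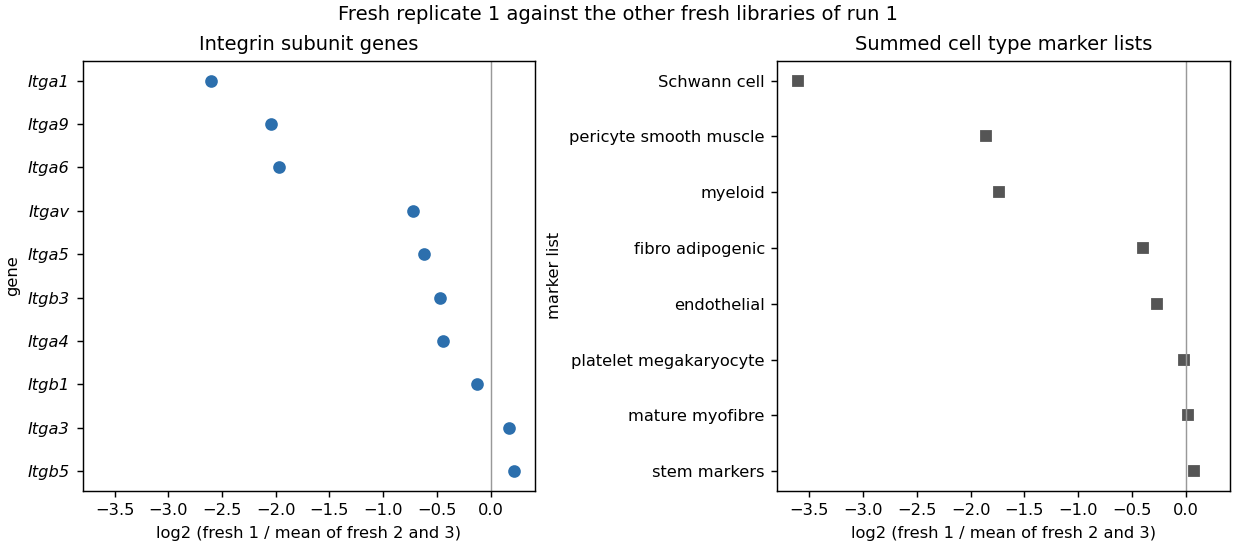
Log2 ratio of fresh replicate 1 to the mean of fresh replicates 2 and 3 (horizontal axes) for the 10 integrin subunit genes on the left and for summed marker lists of cell types on the right. Itga1, Itga9 and Itga6 lie at -2.60 to -1.97, and the Schwann cell, pericyte and smooth muscle, and myeloid sums at -3.61 to -1.73, while the stem cell sum lies at 0.08.

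The same marker lists fell in culture beside the members. The Schwann cell markers summed to 1.69 to 10.8 CPM in cultured and 78.6 to 1134 CPM in fresh libraries, with 7 of 8 called lower and Sox10 and S100b at 0 in all cultured libraries. The pericyte and smooth muscle markers summed to 42.3 to 157 CPM in cultured and 818 to 3190 CPM in fresh libraries, with 7 of 8 called lower and Abcc9 and Kcnj8 at 0 in culture. The myeloid sum was 0.0510 to 5.61 CPM in cultured and 16.3 to 67.9 CPM in fresh libraries, with 2 of the 3 that could be tested called lower and 6 of 8, Csf1r and Adgre1 among them, at 0 in culture. The endothelial sum was 0.263 to 8.87 CPM in cultured and 86.8 to 125 CPM in fresh libraries, with 3 of the 6 tested called lower and Kdr, Tie1, Egfl7 and Ptprb at 0 in culture. The platelet sum, of interest for Itgb3, was 0 to 4.38 CPM in cultured and 3.98 to 9.18 CPM in fresh libraries, with 1 of the 2 tested called lower and Gp9, Gp1bb, Ppbp, Treml1 and Gp6 at 0 in culture. The fibro-adipogenic sum was 7.70 to 19.0 CPM in cultured and 883 to 1224 CPM in fresh libraries, with 6 of the 7 tested called lower and Pi16 at 0 in culture. In mature fibre markers, the sums were 12.5 to 79.3 CPM in cultured and 31.0 to 42.9 CPM in fresh libraries, with 2 of 8 called lower. Many of the tested markers had no cultured library above the filter's level, so their fall was a condition of entry. These were 5 of 8 Schwann cell, 4 of 8 pericyte and smooth muscle, 2 of 3 myeloid and 4 of 6 endothelial markers. They were also 1 of 2 platelet, 2 of 7 fibro-adipogenic and 2 of 8 mature fibre markers. Of all genes tested, 21.4% entered in this way and 18.0% were called lower, so these counts are only a description.

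The part of other cells' RNA in the falls of Itga1, Itga6 and Itga9 was not tested. Set against fresh replicate 1 alone, which held the least Schwann cell and pericyte RNA of the fresh libraries, log2 fold changes were -6.13 for Itga1, -5.54 for Itga9 and -1.40 for Itga6. They were -8.28 for Itga4, -8.06 for Itgb3, -3.98 for Itgb5 and 3.23 for Itga3. With this 1 fresh library, edgeR called 0 of 10 members and 0.72% of all genes tested, and 3 members had an unadjusted p under 0.05, so the absence of calls says nothing about the members. Without fresh replicate 1, 7 of 10 members and 23.2% of all genes tested were called.

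Per kb of exon, Itgb1 stood apart from every other member in both groups, at 89.1 ± 14.4 CPM per kb in cultured and 74.4 ± 13.9 CPM per kb in fresh cells. In cultured cells, Itgav (11.7 ± 5.41), Itga3 (11.4 ± 3.98) and Itga5 (9.38 ± 11.5 CPM per kb) followed, with ranges that overlapped their neighbours. Itga6 (1.27 ± 0.71) and Itgb5 (0.360 ± 0.210 CPM per kb) came next, each with a range apart from the following member. Itga9, Itga1, Itgb3 and Itga4 were last, at 0.00892 CPM per kb or lower, and their order cannot be told from 1 to 6 counts each.

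In fresh cells the order below Itgb1 was Itga5 (8.56 ± 2.28), Itga6 (8.04 ± 4.95), Itgav (7.91 ± 1.73) and Itgb5 (5.19 ± 0.72 CPM per kb). The first 3 of these overlapped in range, Itgav also overlapped Itgb5, and the range of Itgb5 was apart from that of Itga1 (2.09 ± 0.95 CPM per kb). Itgb3 (1.99 ± 0.89), Itga3 (1.33 ± 0.42), Itga9 (1.14 ± 0.77) and Itga4 (0.460 ± 0.421 CPM per kb) followed, each overlapping its neighbour. Itga3 was thus at rank 3 of 10 members in cultured cells and at rank 8 in fresh cells. Lengths are unions of annotated exons, and which transcripts the cells used is not in the table.

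The makeup of the α subunits that can pair with β1 was taken as each subunit's share of the CPM per kb summed over 12 such genes. Itga3 made up 32.0, 15.8 and 32.2% of this sum in cultured replicates 1 to 3, against 3.37, 2.60, 1.22, 4.35 and 2.96% in fresh replicates 1 to 5. Itga6 made up 3.31 ± 2.67% in cultured and 15.5 ± 6.50% in fresh cells. Itgav made up 25.3 ± 7.20% in cultured and 16.5 ± 2.73% in fresh cells. Itga8, an RGD receptor subunit outside the 10 members, made up 0.0763 ± 0.132% in cultured and 16.9 ± 6.74% in fresh cells.

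Among the β subunits, Itgb1 made up 99.2, 99.8 and 99.6% of the sum of Itgb1, Itgb3 and Itgb5 per kb in cultured replicates 1 to 3, against 91.9, 92.4, 93.5, 88.9 and 87.9% in fresh replicates 1 to 5. Itgb5 made up 0.436 ± 0.314% in cultured and 6.45 ± 1.09% in fresh cells. The β shares are parts of the same sum, so the higher Itgb1 share restates the lower shares of Itgb3 and Itgb5. The level of Itgb1 itself overlapped between groups and did not pass the edgeR test. Itga3, Itgb1 and Itgb5 reached p = 0.0179, the smallest a two-sided exact permutation test over 8 libraries can give, with an adjusted p of 0.0595 over the 10 shares. By this exact permutation test 0 of 10 shares passed after adjustment, and 5 had an unadjusted p under 0.05. The test does not use run; within run 2 the Itga3 share was 26.6 ± 9.42% in cultured and 3.65 ± 0.98% in fresh cells, given as values with no test.

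**Figure D4:**
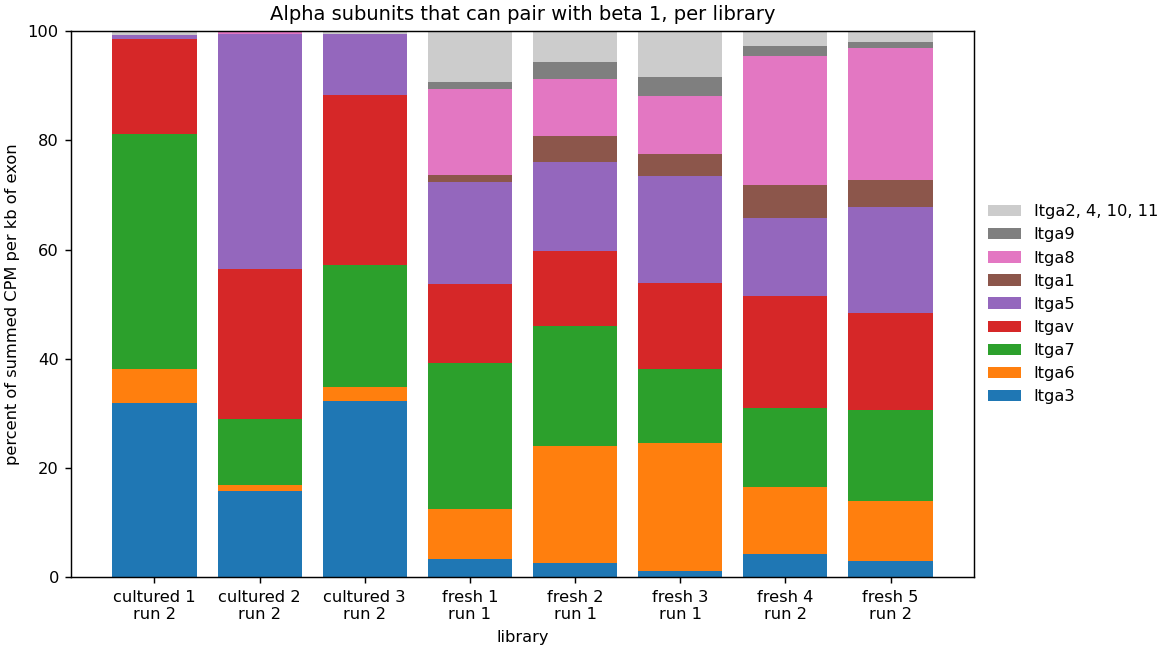
Share of each α subunit gene in the summed CPM per kb of exon (vertical axis, percent) over the 12 α subunits that can pair with β1, with 1 bar per library, cultured on the left. Itga3 is 15.8 to 32.2% of cultured bars and at most 4.35% of fresh bars, Itga8 and Itga1 are nearly absent from cultured bars, and Itga5 ranges from 0.844 to 43.1% between cultured libraries.

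Of 16 other integrin subunit genes, 15 could be tested, and 5 fell, 1 rose and 9 did not pass, where 18.0% of all genes tested were called lower and 8.87% higher. Itgb4, the laminin-binding partner of α6 in hemidesmosomes and Schwann cells, fell to 2.40 ± 0.890 CPM in cultured cells, against 67.3 ± 15.6 CPM in fresh cells (-4.87 ± 0.48; edgeR adjusted p = 0.000356). Itga8 fell to 0.292 ± 0.505 CPM in cultured cells, against 57.2 ± 17.4 CPM in fresh cells (-7.99 ± 1.28; edgeR adjusted p = 0.00325). Its log2 fold change was -7.36 without cultured replicate 1, -13.35 without cultured replicate 2, which held all its counts, and -7.37 without cultured replicate 3. Itgb4 and Itga8 had log2 ratios of fresh replicate 1 to fresh replicates 2 and 3 of -0.95 and -0.08. Itga10, Itga11 and Itgb7 fell and Itgb6 rose, each with a mean under 10 CPM in both groups, and the groups of Itgb6 overlapped. The median log2 fold change was -1.92 over these genes and -0.21 over all genes tested. As with 4 of the 10 members, 5 of these 15 genes entered the test with no cultured library above the filter's level, as did 21.4% of all genes tested, so nothing is read from such medians.

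Of 33 tested ligand genes, 21 fell, 4 rose and 8 did not pass, with a median log2 fold change of -2.85. Over all genes tested, 18.0% were called lower and 8.87% higher. Of these 33 genes, 5 had no cultured library above the filter's level, Vtn, Lama4 and Thbs2 among them. They entered the test through the fresh libraries alone, so their fall was a condition of entry and nothing is read from the median. Ligands of the α8, α9 and αv receptors were among those that rose: Npnt, or nephronectin, rose by 6.16 ± 0.93, Tnc, or tenascin-C, by 5.06 ± 0.76, Spp1, or osteopontin, by 3.01 ± 0.93, and Thbs1, or thrombospondin-1, by 1.62 ± 0.50 on the log2 scale. The vitronectin gene Vtn had no count in cultured cells and 52.5 ± 13.7 CPM in fresh cells. It was at least 1029-fold below the run-2 fresh libraries. Lama4, a laminin α chain, likewise had no count in cultured cells (at least 635-fold below the run-2 fresh libraries). Thbs2 fell by 10.11 ± 0.39 and Col6a1 by 8.39 ± 1.23 on the log2 scale.

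The edgeR adjusted p of these 8 ligand genes ran from 1.1e-05 for Thbs2 to 0.0424 for Spp1. Spp1 was not called without cultured replicate 3 (edgeR adjusted p = 0.0610) or without fresh replicates 3, 4 and 5 (0.0674, 0.183 and 0.198). Thbs1 was not called without cultured replicate 2 (edgeR adjusted p = 0.0686) or without fresh replicates 2, 4 and 5 (0.0650, 0.199 and 0.133), and neither was called with the replicate block (0.0574 and 0.0836). For Npnt the log2 fold change became 5.36 when fresh replicate 4 was left out and 8.47 when fresh replicate 5 was. Col6a1 had one of -7.75, -12.58 and -7.80 without cultured replicates 1, 2 and 3 in turn. In fresh replicate 1, Spp1 stood at a log2 ratio of -3.63, Tnc at -2.45 and Lama4 at -2.38 to fresh replicates 2 and 3, and Vtn at -0.54.

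Genes inside the cell that carry integrin signals went both ways. Of 35 tested scaffold and kinase genes of adhesion sites, 4 rose, 9 fell and 22 did not pass, with a median log2 fold change of -0.28. Over all genes tested, 8.87% were called higher and 18.0% lower, so these counts are only a description. Parvb, or β-parvin, which binds integrin-linked kinase, rose to 83.8 ± 40.3 CPM in cultured cells, against 0.665 ± 0.467 CPM in fresh cells (8.15 ± 0.87). Tns3, a tensin that binds β tails, rose by 3.53 ± 0.56, Actn1, the actin crosslinker α-actinin-1, by 3.48 ± 0.33, and Bcar1, the adaptor p130Cas, by 3.13 ± 0.49 on the log2 scale. Its relatives Tns2 and Tns1 fell by 4.42 ± 1.20 and 3.60 ± 0.75, Nedd9, a relative of Bcar1, by 4.27 ± 1.21 and Arhgef6, an exchange factor of adhesion sites, by 3.33 ± 0.46 on the log2 scale.

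Adjusted p by edgeR was smallest for Actn1 (0.000291) and largest for Nedd9 (0.0298) among these 8 genes. Tns2 was not called without fresh replicates 4 and 5 (edgeR adjusted p = 0.0965 and 0.0844), and Nedd9 was not called without cultured replicate 3 (0.0511) or without any one of the 5 fresh libraries (0.0524 to 0.114). With run 2 alone the edgeR adjusted p was 0.108 for Tns2 and 0.124 for Nedd9, and with the replicate block 0.0681 and 0.0544. Against run-1 fresh libraries it was 0.0508 for Tns2. For Parvb the log2 fold change was 6.55 against run-1 fresh libraries, and it became 9.29 when fresh replicate 4 was left out and 7.54 when fresh replicate 5 was, which also moved Bcar1 to 3.85. Leaving out cultured replicate 1 moved Tns2 to -3.77 and Nedd9 to -3.63.

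Of 21 tested genes for integrin activators and tail binders, 3 rose, 4 fell and 14 did not pass, with a median log2 fold change of -0.06. These counts lie near the shares over all genes tested, 8.87% higher and 18.0% lower, and nothing is read from them. Of these 21 genes, 3 entered the test through the fresh libraries alone, Kank4 and Kank1 among them. Tln2, or talin-2, which links β tails to actin, fell to 55.2 ± 40.9 CPM in cultured cells, against 629 ± 170 CPM in fresh cells (-3.47 ± 0.57; -4.19 without cultured replicate 1). The talin-binding KANK genes Kank4, with no count in cultured cells (at least 663-fold lower), and Kank1 (-8.03 ± 1.11; -7.44 without cultured replicate 1 and -11.41 without cultured replicate 2) also fell. Flnc, an actin crosslinker of muscle, fell by 1.66 ± 0.21, while its relative Flna rose by 0.75 ± 0.20 on the log2 scale. Rapgef1, an exchange factor for Rap1, rose by 0.92 ± 0.25. The core adhesion genes Tln1, Fermt2, Ilk, Ptk2, Pxn and Vcl, from this list and the one before it, did not pass the test, with edgeR adjusted p between 0.164 for Fermt2 and 0.851 for Ptk2.

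Among the called genes named here Flnc had the smallest edgeR adjusted p (0.00121) and Rapgef1 the largest (0.0274). Without fresh replicate 4 or 5 the edgeR adjusted p was 0.118 and 0.126 for Rapgef1, and 0.116 and 0.0747 for Flna. Rapgef1 also missed the threshold without cultured replicate 3 (edgeR adjusted p = 0.0647) and without fresh replicate 2 (0.0529), with no filter (0.0702) and with run 2 alone (0.0583). With the replicate block the edgeR adjusted p was 0.143 for Rapgef1 and 0.304 for Flna. For Flna it was 0.130 against run-1 fresh libraries and 0.0868 with no run term.

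Of 19 membrane partners and other matrix receptors, 4 rose, 5 fell and 10 did not pass, with a median log2 fold change of -0.56. The shares over all genes tested were 8.87% higher and 18.0% lower, and these counts are only a description. Dag1, or dystroglycan, the laminin receptor of the dystrophin complex, fell to 181 ± 32.1 CPM in cultured cells, against 2920.2 ± 721 CPM in fresh cells (-4.09 ± 0.33). Cd44, the hyaluronan receptor, rose to 1215 ± 211 CPM in cultured cells, against 120 ± 30.2 CPM in fresh cells (3.71 ± 0.29). Plaur, the urokinase receptor, rose by 4.60 ± 0.63, Bsg, or basigin, by 1.07 ± 0.31 and the tetraspanin gene Cd63 by 1.04 ± 0.25 on the log2 scale. Cav1, or caveolin-1, fell by 1.68 ± 0.25, Cd47, which binds αv with β3, by 1.62 ± 0.39 and the tetraspanin gene Cd82 by 1.22 ± 0.30.

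Cd44 had the smallest edgeR adjusted p of these 8 genes (0.000136) and Bsg the largest (0.0346). Bsg was not called without cultured replicate 2 (edgeR adjusted p = 0.0698) or without any one fresh library (0.0566 to 0.189), nor with no filter (0.0549), with run 2 alone (0.105) or with the replicate block (0.103). The rise of Cd63 rested on the run-2 fresh libraries, and its groups overlapped: its log2 fold change was -0.13 against run-1 fresh libraries (edgeR adjusted p = 0.671), 0.18 with no run term (0.714) and -0.20 with the replicate block (0.585). Its edgeR adjusted p was 0.0966 without fresh replicate 4 and 0.0516 with run 2 alone. The log2 fold change of Plaur was 3.04 against run-1 fresh libraries and 2.91 with the block. Cd47 was not called without fresh replicates 4 and 5 (edgeR adjusted p = 0.0698 and 0.0753), with run 2 alone (0.0525) or with the block (0.0640). Cd82 was not called without fresh replicate 5 (edgeR adjusted p = 0.134), without scaling factors (0.0817) or with run 2 alone (0.0711).

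**Figure D5:**
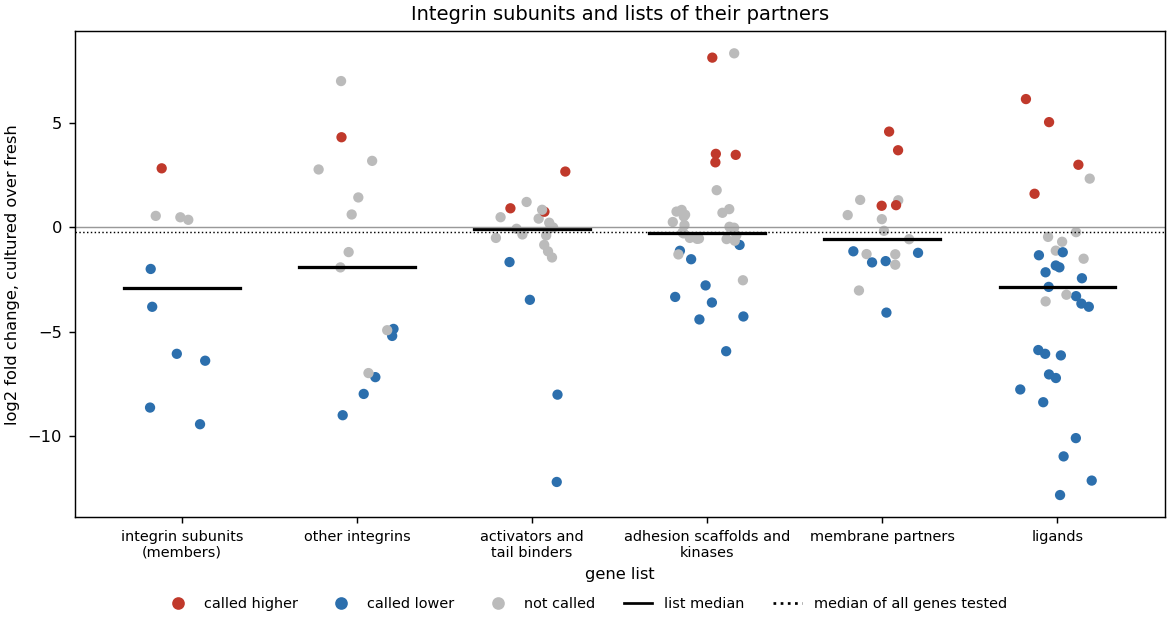
Log2 fold change, cultured over fresh (vertical axis), of each tested gene in 6 lists (horizontal axis), coloured by call; black lines are list medians and the dotted line is the median of all genes tested. Genes lie on both sides of 0 in every list. The low medians of the members, the other integrins and the ligands include 4 of 10, 5 of 15 and 5 of 33 genes that entered the test through the fresh libraries alone. Such genes were 3 of 21 activators and tail binders, 1 of 35 scaffolds and kinases and 0 of 19 membrane partners.

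The genes most like Itga3, by Euclidean distance of centred log2 CPM over the 8 libraries among 8909 genes with a mean of at least 10 CPM, were Gsr (distance 0.949), Cdt1 (0.952) and Fam207a (0.985), where the median distance was 4.70. Gsr, which encodes glutathione reductase, stood at 60.7 ± 14.6 CPM in cultured and 7.25 ± 0.97 CPM in fresh cells. Cdt1, a replication licensing factor, stood at 88.1 ± 27.7 CPM in cultured and 7.10 ± 2.64 CPM in fresh cells. The genes most like Itgb3, the member with the largest fitted fall, were the predicted genes Gm38070 (distance 0.864) and Gm4793 (0.879) and the maltase-glucoamylase gene Mgam (1.19), where the median distance was 8.98. Mgam had no count in cultured cells and 17.6 ± 8.09 CPM in fresh cells.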

How the data were processed

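RNA was measured by RNA-seq in 8 libraries. Per the labels' protocols, RNA was isolated with a Qiagen micro kit, amplified with NuGEN Ovation v2 and built into Illumina libraries. The submitters' processing notes name STAR, RSEM and mm10, with no version, annotation or use of strand. The authors deposited RSEM's expected counts (50.1% of values above 0 are not whole), rounded here; a read with several possible genes is split between them. The 92 spike-in lines were left out.

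Genes were filtered with filterByExpr and scaled by TMM (0.790 to 1.18), and tested with edgeR 4.0.16 in R 4.3.3 with run and culture as terms and 5 residual degrees of freedom. The culture coefficient thus compares cultured with run-2 fresh libraries, and run-1 libraries add to the spread. Each SE is an approximation, the log2 fold change over the root of F. Shares used the union of exons in GENCODE M21 (mm10). Where cultured cells held 1 to 3 counts, a ratio with an exact 95% interval is given. Where they held 0, a bound against 3 counts over the cultured libraries is given. These ratios and bounds, also those without 1 cultured library, are set against the run-2 fresh libraries alone. Both cover counting error only, since no molecular identifiers are mentioned. The fit was tested on simulated counts. DESeq2 1.42.0 was an alternative.

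Members, gene lists and tests were chosen with earlier results of these data known. Named are the members, the genes of the sort, in each list up to 4 called genes per direction with the largest fold change and a mean of at least 10 CPM, and the 3 genes most like the member with the largest rise and fall. Itga10, Itga11, Itgb7 and Itgb6, which complete a count, the 6 core adhesion genes, marker genes at 0 and the Itga8 share were named after their values were seen. A gene that the rule also names is not reported here.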

Additional observations from a re-analysis of the deposited data

Results flagged for a closer look

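Among the 10 integrin subunit genes, the level of Itga1 in fresh replicate 1 stood apart from the other fresh libraries. It was 8.03 CPM there and 39.6 to 51.2 CPM in the other 4, a gap to the next library of 0.732 of the group's whole range. Chance gives a gap past the limit used (Dixon's 95% value) in about 1 in 20 groups, and 10 groups were looked at.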

How the results depend on the processing

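The 1 member higher and 6 lower became 2 higher without scaling factors, 3 lower with run 2 alone, and 0 and 0 with fresh replicate 1 alone (a setting chosen after seeing the data, with 58 genes higher and 93 lower over all genes). Over all genes, 1691 were higher and 3431 lower, 2452 and 2857 without scaling factors, and 1013 and 1767 with run 2 alone. Leaving out 1 library gave 1 to 2 members higher and 4 to 6 lower, and 896 to 2198 genes higher and 2441 to 3965 lower. For the run, 18 genes were higher and 18 lower, 10 higher without scaling factors, and 322 and 599 with DESeq2 (added later). Leaving out 1 library gave 1 to 70 higher and 0 to 47 lower. DESeq2 called the same number of members in culture, 7, but it called 6840 of the 19054 genes, where edgeR called 5122. No share passed in any setting tried. With fewer than 8 libraries the smallest p of the exact permutation test is above 0.0179. The settings that leave out libraries could therefore hardly give a pass, and nothing is read from them.

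Itga5 reversed in culture (-1.27 to 1.00 without 1 library, -1.36 with the block) and in its share (-11.6 to 9.49 percentage points without 1 library, -0.109 without fresh replicate 4). Run coefficients that were not called reversed for Itga1 (-0.0404 without scaling factors, -0.17 to 0.67 without 1 library), Itgav (-0.25 without scaling factors, -0.11 to 0.32 without 1 library) and Itgb5 (-0.22 to 0.0933 without 1 library). The cause was not tested.

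Replicate numbers gave no clear pairing of the samples: same-numbered fresh and cultured libraries correlated at 0.0296, 0.0103 and 0.0108 in their deviations. Each library correlated best with its own number, and whether samples shared an origin cannot be told from these values. With the replicate block, which sets cultured against run-1 fresh libraries with 2 residual degrees of freedom, 1081 genes were higher and 1401 lower, and 6 members were called. Members with 1 to 6 cultured counts are limited by depth.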
